A study of Mus musculus with 17 samples.

Results

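The genes described here are cyclins, cyclin-dependent kinases and regulators of mitotic entry, measured in 17 single 2-cell mouse embryos. The members were the rows of the array table whose platform annotation gave 1 of 10 symbols (Ccna2, Ccnb1, Ccnb2, Ccne1, Ccnd2, Cdk1, Cdk2, Wee1, Wee2 and Mos). For 9 of the 10 genes the annotation listed exactly 1 row each, so that 9 of the 21780 rows with a single gene symbol were members. No row was listed for Ccnb1, and it is not analysed here. All embryos were of the wild-type inbred strain 129SVE and came from natural mating of wild-type males with untreated wild-type females. The males had been injected each day with PJ34, which inhibits the enzymes PARP1 and PARP2, or with saline as control, over 6 weeks. The labels of the control fathers read both saline treated and untreated, and a supplementary legend of the study names a longer period than the labels. The 7 control embryos came from 3 fathers (1 embryo of father A, 3 each of B and D), and the 10 PJ34 embryos also came from 3 fathers (4 embryos each of MTM11 and MTM13, 2 of MTM14). The treated animal is the father and each array is 1 embryo, so embryos of 1 father are not independent of him, and the effect of the drug rests on 3 males a group. Embryo age in hours and cell cycle phase are not among the labels. The number of embryos limits the precision of every value below.

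Cyclins are the regulatory subunits that switch on cyclin-dependent kinases (Cdks). D-type and E-type cyclins act around the entry into S phase, cyclin A2 acts with Cdk2 in S phase and with Cdk1 in G2, and B-type cyclins with Cdk1 form the kinase that drives mitosis. Wee1 and its oocyte form Wee2 (Wee1B) phosphorylate Cdk1 and hold it inactive. Mos, a kinase upstream of the MAP kinase cascade, keeps the mature oocyte arrested in meiosis, and its product is normally lost after fertilization. In the mouse 2-cell embryo the G2 phase is long, the main wave of embryonic genome activation takes place in it, and transcripts inherited from the egg are being degraded.

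Promoters are shown for the partners cyclin B2 and Cdk1, whose levels are set side by side below. That of Cdk2, whose lowest levels were those of 1 family, is shown as well. These promoters hold letter matches to short elements known from cell cycle genes, which other promoters also hold. The 100 bases before the annotated start are given 5′ to 3′ along the gene (RefSeq, GRCm38.p6, minus strand for each). They lie at chr9:70421555-70421654 for Ccnb2, chr10:69352913-69353012 for Cdk1 and chr10:128705052-128705151 for Cdk2, and capitals mark CCAAT (read as ATTGG on the other strand), TTTGAA and GCGGGAA.
Ccnb2: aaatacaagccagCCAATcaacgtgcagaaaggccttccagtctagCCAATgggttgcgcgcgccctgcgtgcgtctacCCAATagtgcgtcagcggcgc
Cdk1: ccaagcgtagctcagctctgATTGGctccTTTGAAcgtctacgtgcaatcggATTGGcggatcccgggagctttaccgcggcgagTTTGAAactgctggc
Cdk2: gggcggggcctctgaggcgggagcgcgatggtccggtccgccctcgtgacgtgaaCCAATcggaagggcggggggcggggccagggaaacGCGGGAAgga

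CCAAT is the letter core of the CCAAT box, TTTGAA that of the cell cycle homology region and GCGGGAA a form of the E2F element. They and TATAAA were searched on both strands over the 250 bases before the start, and no hits overlapped. Ccnb2 held CCAAT at 87, 54 and 21 bases before the start, with starts 33 bases apart, and TTTGAA at 167 bases. In Cdk1 it began at 80 and 48 bases, a spacing of 32, with a further copy at 208, and TTTGAA at 71 and 15 bases. Ccnb1, which has a promoter in the table though no row on the array annotation, held CCAAT at 99 and 67 bases, also 32 apart. In Cdk2 CCAAT began at 45 bases and GCGGGAA at 10 and 140 bases, while Wee2 held 1 CCAAT at 160 bases and Ccne1 held none of the 4 motifs. The bases searched for Wee2 end at chr6:40442862 on the plus strand, inside the gene, which is annotated from 40435246. They do not lie before its outermost start. Ccna2, Ccnd2, Wee1 and Mos are not in the promoter table. Of 32851 mouse promoters of this length, 33.8% held CCAAT at least once, 10.1% at least 2 times and 2.79% at least 3 times. TTTGAA was present in 16%, GCGGGAA in 3.82% and TATAAA in 12.4%. These are matches of letters, and no binding was measured.

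Values were log2 intensities after RMA (robust multichip average) normalization, and array medians lay between 6.12 and 6.23. Over the named rows the median level was 6.25, the 5th and 95th percentiles were 4.02 and 10.6, and the highest was 13.3. Markers of the egg and the 2-cell embryo were bright and those of neighbouring tissues dim. The 8 oocyte-derived markers (such as Gdf9, Bmp15 and Zp3) averaged 10.48 to 10.88 in control and 10.55 to 11.09 in PJ34 embryos. The 5 of 9 listed 2-cell markers that had a row averaged 8.38 to 9.68 and 7.45 to 9.60. Cumulus cell markers, with 0 of 8 rows above the median level of all rows, averaged 5.13 to 5.32 and 5.05 to 5.37, and 8 markers of oviduct and blood averaged 5.51 to 5.73 and 5.56 to 5.83, with 2 rows above that median. The brightness of a probe set depends on its probes as well as on its transcript, so levels of different genes place each gene in the array and do not order transcript numbers. In a whole embryo, a lower level per cell cannot be told apart from fewer cells that contribute.

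Among the cyclins, Ccne1, Ccna2 and Ccnb2 were bright and Ccnd2 was dim. The level of Ccne1, whose cyclin acts with Cdk2 at the start of S phase, averaged 11.21 over 17 embryos, above 97.1% of all named rows. Its control embryos lay between 10.75 and 11.51 with a median of 11.02, and the PJ34 embryos between 10.71 and 11.74 with a median of 11.28. The ranges overlapped almost fully, with 3 PJ34 embryos above the highest control embryo and 1 below the lowest. Ccnd2, which encodes a D-type cyclin that couples growth signals to Cdk4 and Cdk6, had a mean level of 6.30, above 51.2% of rows. Control embryos had levels of 6.07 to 6.58 (median 6.21), and PJ34 embryos 6.12 to 6.54 (median 6.24). No PJ34 embryo was outside the control range, and the level was close to the highest of the cumulus marker rows, at 6.04, a cell type whose markers were low throughout.

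Ccna2, the cyclin of S phase and G2, was the steadiest of the 9 genes between embryos. Its level was 11.50 ± 0.10 (SD, n = 7) in control embryos, from 11.34 to 11.67 with a median of 11.48. In PJ34 embryos it was 11.51 ± 0.10 (n = 10), from 11.31 to 11.62 with a median of 11.52. All 17 embryos thus lay within 0.37 of each other on the log2 scale, a 1.29-fold range. Only 6.63% of all named rows had a lower within-group SD, and the median SD was 0.19. Bright rows varied less than rows of middle level, so the SD was also set against the 620 rows within 0.5 of its level, a window chosen after the values were seen. Of these, 27 (4.35%) had a lower SD than Ccna2, and their median SD was 0.21.

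Ccnb2, the mitotic cyclin measured here, varied more between embryos than the other cyclins. Its level was 9.89 ± 0.54 in control embryos (lowest 9.32, median 9.72, highest 10.55) and 9.52 ± 0.52 in PJ34 embryos (lowest 8.47, median 9.57, highest 10.11). The embryos spanned 2.08 on the log2 scale, a 4.24-fold range, while the means of the PJ34 families lay close together, at 9.45, 9.58 and 9.53. The lowest embryos were MTM11-3 at 8.47 and MTM13-1 at 8.87. The other MTM11 embryos stood at 9.50, 9.91 and 9.90, and the other MTM13 embryos at 10.11, 9.96 and 9.39. Of the rows within 0.5 of its level, 62.5% had a lower SD, so a spread of this size was common at this level.

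**Figure D1:**
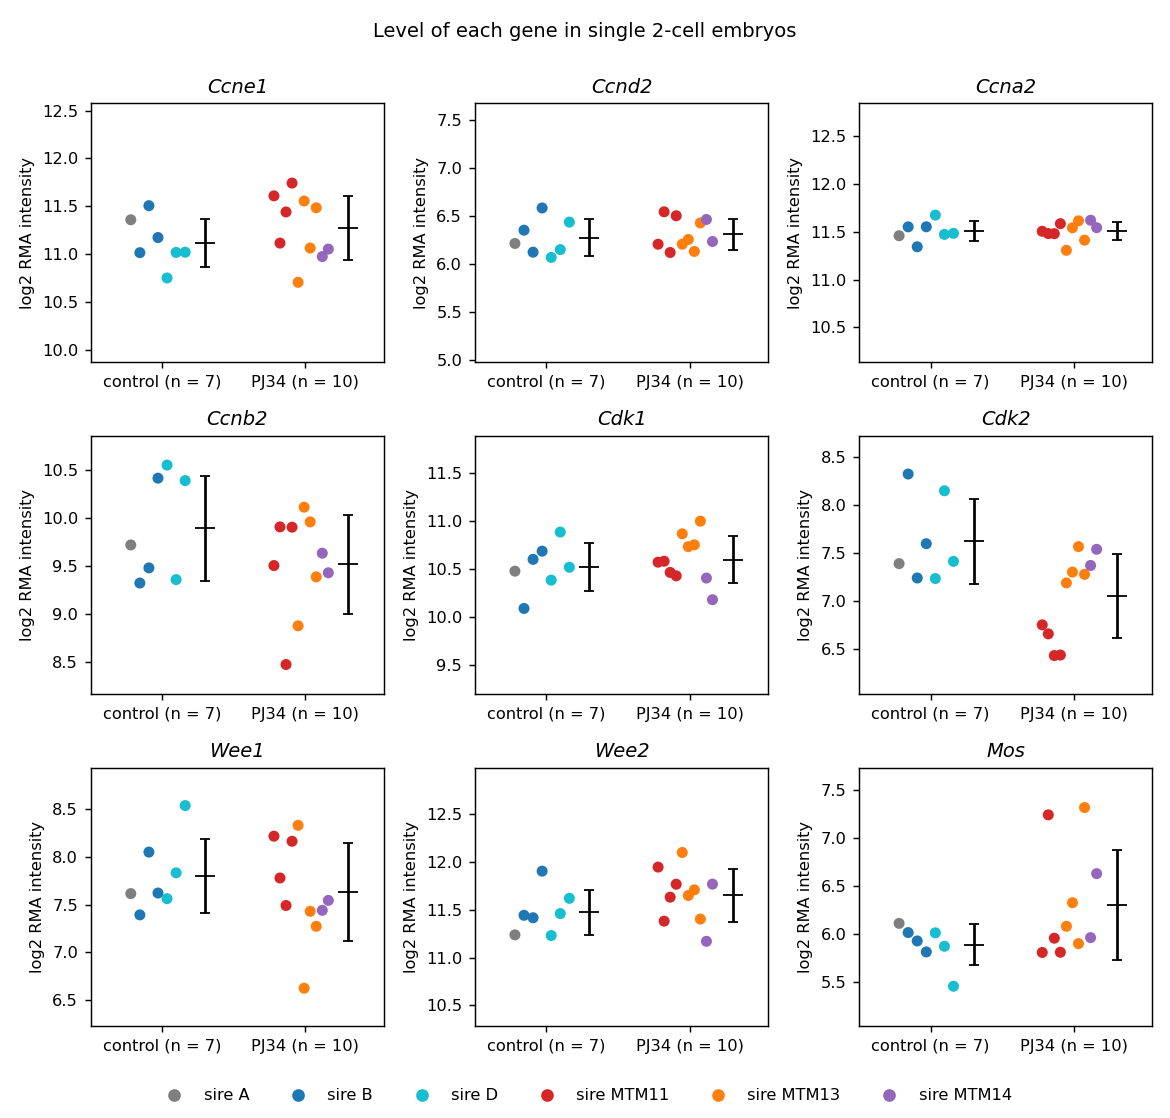
Level of each gene (log2 RMA intensity) in single embryos, in 9 panels with y axes of the same length, 7 control embryos on the left and 10 PJ34 embryos on the right of each. Points are embryos coloured by father, and the bar and whiskers are the group mean and SD. Ccna2 is nearly flat, Cdk2 is lowest in the 4 MTM11 embryos, and Mos is highest in 2 PJ34 embryos of different fathers.

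The mitotic kinase gene Cdk1 was bright and moderately steady. Its level was 10.52 ± 0.25 in control embryos, from 10.09 to 10.88 with a median of 10.52. PJ34 embryos stood at 10.60 ± 0.24, from 10.18 to 10.997 with a median of 10.57. The 4 embryos of MTM13 had levels of 10.86, 10.73, 10.75 and 10.997. All 4 lay above the 6 other PJ34 embryos, of which the highest was 10.58. The embryos of MTM11 stood at 10.57, 10.58, 10.46 and 10.43, and those of MTM14 at 10.40 and 10.18, inside the range of the control embryos. Of the MTM13 embryos only the highest, MTM13-4 at 10.997, lay outside that range.

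Cdk2, the S phase kinase partner of cyclins E and A, had a middle level of 7.29, above 73.6% of rows. Control embryos had levels of 7.39 (A-2), 8.33, 7.24 and 7.60 (B-1 to B-3) and 7.23, 8.15 and 7.41 (D-1 to D-3). The 4 MTM11 embryos stood at 6.75, 6.66, 6.43 and 6.44, the 4 MTM13 embryos at 7.19, 7.30, 7.57 and 7.28, and the MTM14 embryos at 7.37 and 7.54. All MTM11 embryos were thus below every one of the 13 others, of which the lowest was 7.19. The embryos of MTM13 and MTM14 lay in the lower part of the control range or just under it.

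The inhibitory kinase genes stood at different levels. Wee1, the form of dividing somatic cells, had a level of 7.80 ± 0.39 in control embryos (lowest 7.39, median 7.62, highest 8.53) and 7.63 ± 0.51 in PJ34 embryos (lowest 6.63, median 7.52, highest 8.33). The groups overlapped over most of their ranges, and MTM13-2 held the lowest value. Wee2, the oocyte form that keeps Cdk1 inactive in meiotic arrest and acts again at egg activation, was the brightest of the 9 genes at 11.58, above 98.2% of rows. Its level was 11.47 ± 0.23 in control embryos (11.23 to 11.90, median 11.44) and 11.65 ± 0.28 in PJ34 embryos (11.17 to 12.10, median 11.68). PJ34 embryos reached above the control range in 2 cases and below it in 1.

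Mos had a mean level of 6.13, below the median of all named rows and close to that of Ccnd2. Control embryos stood at 6.11 (A-2), 6.01, 5.93 and 5.81 (B) and 6.01, 5.87 and 5.45 (D). The MTM11 embryos had levels of 5.81, 7.24, 5.95 and 5.81, the MTM13 embryos 6.08, 6.33, 5.90 and 7.32, and the MTM14 embryos 5.96 and 6.63. Most embryos were alike, with 14 of 17 between 5.45 and 6.33. The exceptions were MTM13-4, MTM11-2 and MTM14-2, all fathered by PJ34-treated males but by different ones. The SD was 0.57 in PJ34 embryos and 0.21 in control embryos, and 89.0% of the 6238 rows within 0.5 of its level had a lower within-group SD.

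**Figure D2:**
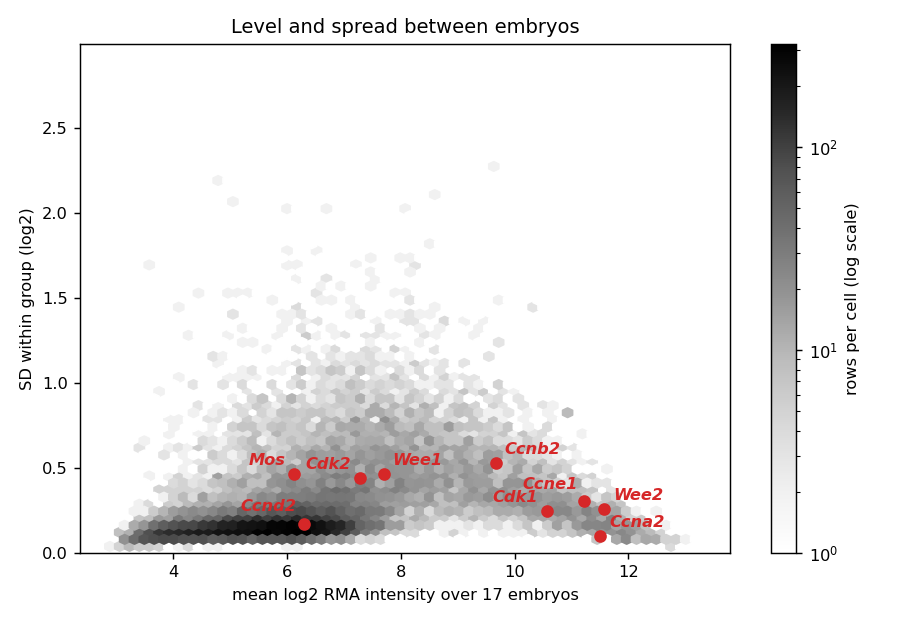
Mean level over 17 embryos (x axis, log2 RMA intensity) against the SD within groups (y axis, log2) for all 21780 named rows, shaded by the number of rows, with the 9 genes in red. Ccna2 lies at the low edge of the cloud at its level (SD 0.10), Mos above the dense band of dim rows (SD 0.47) and Ccnb2 highest of the 9 (SD 0.53).

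The first comparison asked whether the genes differed between embryos of PJ34-treated and control fathers. With the threshold of the study, an adjusted p of 0.1, none of the 9 was called (limma, Benjamini-Hochberg over 21780 rows), and neither did any other row (0% called, lowest adjusted p = 0.112). At an unadjusted p under 0.05 stood 1 of the 9 genes, Cdk2, beside 5.89% of all rows (426 higher and 856 lower in PJ34 embryos). The median difference over all rows was -0.02, a value held near 0 by the quantile normalization, and 56.4% of the differences were negative.

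Cdk2 had the largest difference of the 9, at -0.57 on the log2 scale (95% interval -1.01 to -0.13, 1.48-fold lower in PJ34 embryos). Each of the 10 PJ34 embryos was under the mean of the control embryos (7.62), and 5 were under the lowest of them. That mean was raised by B-1 (8.33) and D-2 (8.15), and the control median was 7.41. MTM13-3 (7.57) and MTM14-2 (7.54) lay above that median. Over all rows the adjusted p was 0.831 (limma). The exact permutation test over 19448 splits of the embryos gave an unadjusted two-sided p of 0.0204, and 0.184 adjusted over the 9 genes. These splits treat embryos as exchangeable, although they share fathers. The means of fathers were 7.39, 7.72 and 7.60 in control and 6.57, 7.33 and 7.46 in PJ34 embryos. The group difference rested in large part on 1 father: without the MTM11 embryos it was -0.25.

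Mos followed at 0.42 (95% interval -0.04 to 0.88, 1.34-fold higher; limma adjusted p = 0.863, unadjusted exact permutation p = 0.0925, two-sided). The level was above the control mean in 8 of 10 PJ34 embryos and above the highest control embryo in 4. With the 2 highest embryos left out, as a description chosen on the values, the difference was 0.17.

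The other 7 genes had intervals that held 0. The difference of Ccnb2 was -0.37 (95% interval -0.89 to 0.15) and that of Wee1 -0.17 (-0.63 to 0.29). Wee2 differed by 0.18 (-0.08 to 0.44), Ccne1 by 0.15 (-0.15 to 0.46) and Cdk1 by 0.08 (-0.17 to 0.33). The narrowest intervals were those of Ccna2, with a difference of 0.00 (-0.11 to 0.12), and Ccnd2, with 0.03 (-0.15 to 0.21). For Ccna2 a change of more than 1.08-fold in either direction was therefore outside the interval, whereas for Ccnb2 a decrease of up to 1.86-fold was still inside it. The intervals take embryos as independent, although they share fathers, so they do not bound the effect of the drug between males. The adjusted p of these 7 genes ran from 0.895 for Ccnb2 to 0.995 for Ccna2 (limma).

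**Figure D3:**
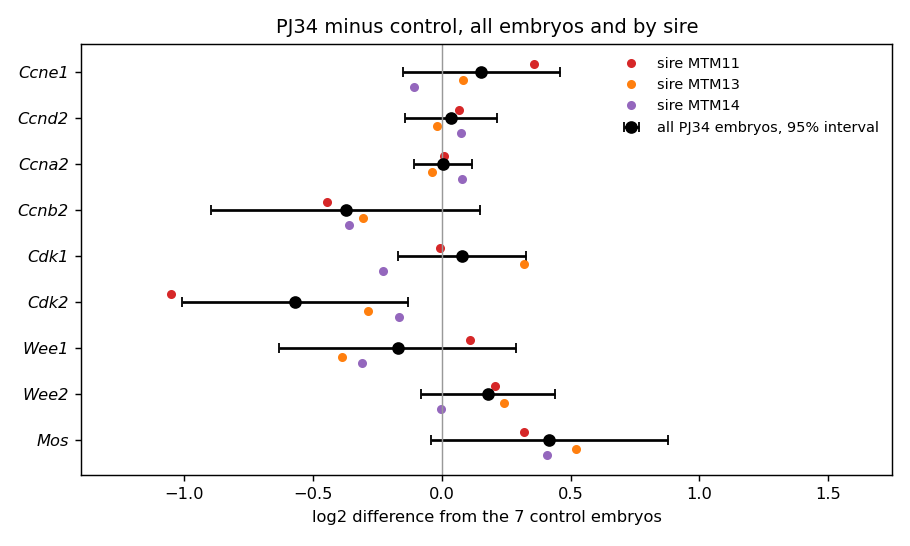
Difference in level between PJ34 and control embryos for each gene (x axis, log2). Black points with bars are all 10 PJ34 embryos against 7 control embryos with the 95% interval, and coloured points are the families of the 3 fathers against the same control embryos. Only the interval of Cdk2 leaves out 0, and its MTM11 family, at -1.05, lies far from the other families.

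Families were then compared, because the treated animal is the father. Against the 7 control embryos, which all 3 families share, none of the 9 genes passed in any family. Called shares of all rows were 0.00459% for MTM11 (1 row), 0% for MTM13 and 0.0551% for MTM14 (12 rows). Cdk2 in MTM11 embryos was nearest, with a difference of -1.05 (SE 0.19, 2.08-fold lower, limma adjusted p = 0.276). For MTM13 the difference was -0.29 and for MTM14 -0.17. The differences of Cdk1 were -0.01, 0.32 and -0.23 in the order MTM11, MTM13 and MTM14, and those of Mos were 0.32, 0.52 and 0.41. Ccnb2 stood lower in each family (-0.44, -0.31 and -0.36), with standard errors of 0.33 to 0.43. Its level was under the control mean in 6 of the 10 PJ34 embryos, and lowest in MTM11-3 (8.47) and MTM13-1 (8.87). Ccne1 had 0.36, 0.08 and -0.11, and Wee1 0.11, -0.39 and -0.31. A test of the difference between the 3 PJ34 fathers (limma moderated F) called 0.0138% of rows (3 rows) and none of the 9 genes. This count of rows was 56 without MTM14-1, 110 without MTM14-2, at most 7 without any other embryo and 0 without MTM11-3, MTM13-4, D-1 or D-2, and no member was among them. The smallest p among the 9 were those of Cdk2 (adjusted p = 0.844, limma) and Cdk1 (adjusted p = 0.871, limma).

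Single PJ34 embryos were also compared with the 7 control embryos, in a model where the spread comes from the control embryos alone and the lone embryo, which has no spread of its own, is assumed to vary like them. Under that assumption 2 of 90 values (9 genes in 10 embryos) passed, and both were Mos. MTM13-4 had a Mos difference of 1.43 (limma adjusted p = 0.0469), where 0.615% of all rows were called. MTM11-2 had 1.36 (limma adjusted p = 0.0974), where 0.289% were called. The third-highest embryo, MTM14-2, had 0.74 and an adjusted p of 0.558 (limma). Over the 10 PJ34 embryos 0.581% of all values were called, and over the 7 control embryos, each set against the other 6, 0.397%. No member was called in a control embryo. The calls were close to the threshold: with 1 control embryo left out 0 to 2 values passed (0 without B-3 or D-2), and with arrays centred on their medians 1 did. Whether Mos varies more between PJ34 than between control embryos was not tested.

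Other measures of these embryos differed as well. MTM13-4 had the lowest mean of the 2-cell markers of all embryos (7.45) and the highest mean of the oviduct and blood markers (5.83). It also lay at an end of both main principal components, at rank 1 and rank 17 of 17. MTM11-2 had middle levels of the 2-cell markers (9.12), but ranked 16 of 17 from the lowest for the array median, 15 for the second component and 2 for the mean of the mitotic entry regulators. The part of these measures in the Mos values was not tested.

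No cell cycle phase was recorded for the embryos, and the levels of the genes were next compared with each other across embryos. Over 36 pairs of the 9 genes and 17 embryos, no pair passed (permutation test with 100000 permutations, lowest adjusted p = 0.681). Of the 36 values of Pearson's r, 16 were positive and 20 negative, with a median of -0.04 and a range from -0.49 to 0.54. An unadjusted p under 0.05 was reached by 2 pairs for r and by 3 for Spearman's rho, and no pair passed by rho.

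The highest r was that of the cyclin genes Ccna2 and Ccnb2, at 0.54 (permutation p = 0.0247, adjusted p = 0.681). Their rho was 0.56 (permutation p = 0.0225, adjusted p = 0.374). The r was 0.59 with values centred within groups and 0.62 centred within fathers, 0.57 within the 7 control embryos and 0.60 within the 10 PJ34 embryos. With any 1 embryo left out it was 0.44 to 0.61. Without the embryos farthest from the median of Ccna2 (D-1 and MTM13-1) it was 0.29. Leaving these out also narrows the range of Ccna2, so the fall cannot show how far the relation rests on them. The lowest r was between Ccne1 and its kinase Cdk2, at -0.49 (permutation p = 0.0460, adjusted p = 0.681). Their rho was -0.40 (permutation p = 0.115, adjusted p = 0.971). Centred within fathers r was -0.17, and without the extremes of Ccne1 (MTM11-1 and MTM11-4) -0.27. The MTM11 family, which had the lowest Cdk2 levels, also had the highest mean of Ccne1 (11.48).

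Among other pairs r had either sign. Of kinases with their cyclins or inhibitors, Ccna2 and Cdk2 gave 0.08, Cdk1 and Wee1 0.01, and Cdk1 and Wee2 0.22. Ccnb2 and Cdk1, the subunits of the mitotic kinase, gave r = -0.04 (0.12 for Ccnb2 and Cdk2). Ccna2 and Cdk1 gave r = -0.47 (permutation p = 0.0568, adjusted p = 0.681) and rho = -0.53 (permutation p = 0.0312, adjusted p = 0.374). The kinases Cdk1 and Cdk2 gave -0.04 and the inhibitors Wee1 and Wee2 0.34. Wee1 and Mos gave r = -0.41 (permutation p = 0.107, adjusted p = 0.948) and rho = -0.56 (permutation p = 0.0211, adjusted p = 0.374).

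**Figure D4:**
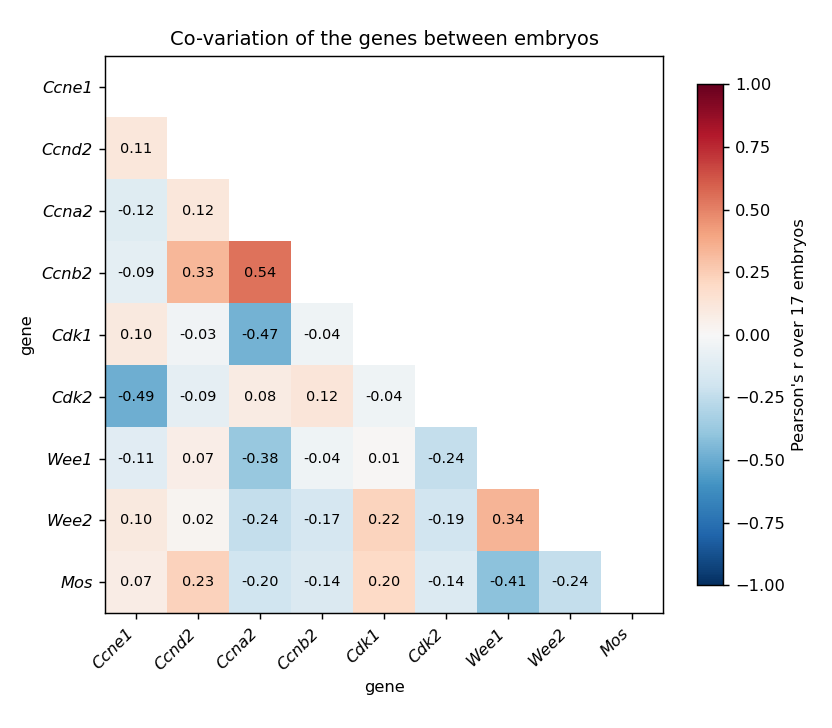
Pearson's r between the levels of each pair of the 9 genes over 17 embryos (rows and columns are genes, colour from -1 in blue to 1 in red, values printed). The strongest cells are Ccna2 with Ccnb2 (0.54), Ccne1 with Cdk2 (-0.49) and Ccna2 with Cdk1 (-0.47), and none passed after adjustment over 36 pairs.

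Each gene was also set against the mean levels of the marker lists, the array median and the main components of the arrays (63 relations), and against the means of 7 lists of cell cycle genes (another 63). These relations were not planned and were added after the data were seen. Wee2 followed the 8 oocyte-derived markers: r was 0.78 and rho 0.67 (permutation p = 0.00022, adjusted p = 0.0139; for rho 0.204 adjusted). All 8 single markers had a positive r with Wee2, from 0.20 for Nlrp5 to 0.68 for Bmp15. The r was 0.59 within the control embryos and 0.82 within the PJ34 embryos, 0.75 centred within groups (adjusted p = 0.0800, permutation test) and 0.76 centred within fathers. It was 0.69 without the embryos of extreme marker mean (D-1 and MTM14-1), and 0.72 to 0.82 with any 1 embryo left out. Embryos with a high level of these egg transcripts thus tended to have a high level of Wee2.

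Mos had an r of -0.75 with the mean of 46 rows of other cyclins and their kinases (rho -0.63, permutation p = 0.00028, adjusted p = 0.0176, for rho 0.515 adjusted). Within groups it was -0.30 in control and -0.84 in PJ34 embryos, and -0.69 on group-centred values (adjusted p = 0.107, permutation test). MTM13-4 and MTM11-2 had the lowest list means (7.69 and 7.73) as well as the highest Mos levels, and without both r was -0.49. This removal was chosen on the Mos values and narrows their range, so the fall cannot show how far the relation rests on them. Without B-3 and D-1, whose list means lay farthest from the median, r was -0.83. With the 26 rows of S phase genes the r of Mos was 0.66 (adjusted p = 0.146, permutation test), and rho was 0.39 (adjusted p = 0.743, permutation test). Without MTM11-2 and MTM13-4, which hold the highest Mos levels and the highest S phase means, r was 0.14. Leaving them out also narrows the range of both measures.

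Ccnd2 had its highest r with measures of the array and of other cell types. It was 0.65 with the mean of the 8 cumulus markers (adjusted p = 0.164) and 0.61 with the second principal component of the arrays (adjusted p = 0.183). With the array median it was 0.61 (adjusted p = 0.183), and with the 8 oviduct and blood markers 0.58 (adjusted p = 0.188, permutation tests). In the same order rho was 0.63, 0.62, 0.44 and 0.51 (adjusted p = 0.204, 0.204, 0.733 and 0.588, permutation tests). On group-centred values the relations with the cumulus markers (r = 0.66, adjusted p = 0.0966) and with the second component (r = 0.67, adjusted p = 0.0923, permutation tests) passed the threshold of 0.1. By Spearman's rho, on values not centred, neither passed (adjusted p = 0.204 for each, permutation test). Of the 8 cumulus rows 0 lay above the median level of all rows. The part of these measures in the Ccnd2 values was not tested.

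**Figure D5:**
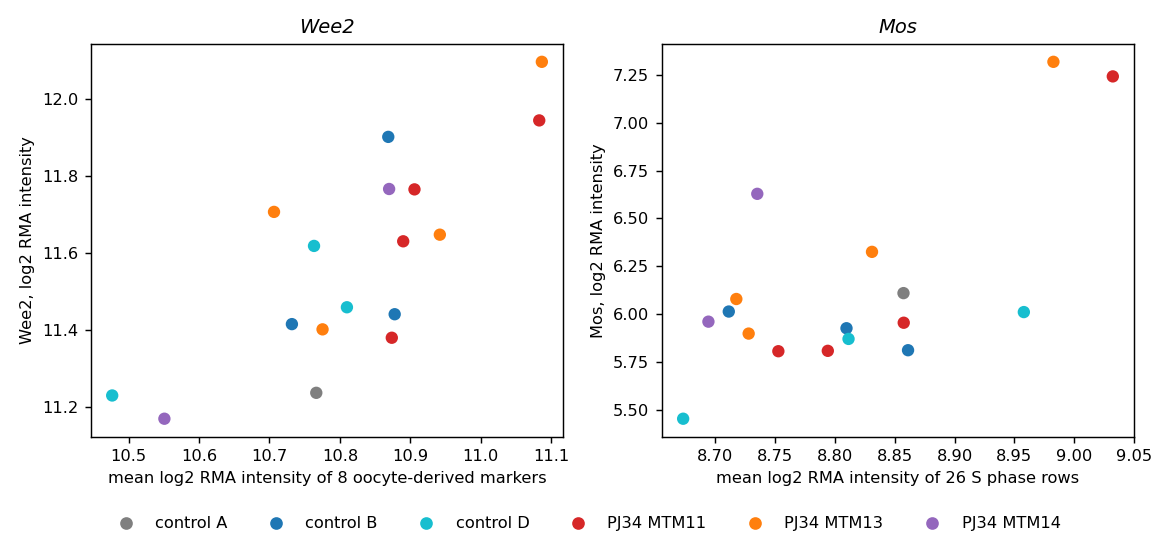
Left, level of Wee2 (y axis) against the mean of 8 oocyte-derived markers (x axis); right, level of Mos (y axis) against the mean of 26 rows of S phase genes (x axis), all as log2 RMA intensity. Each point is 1 of 17 embryos coloured by father. Wee2 is higher where the markers are higher (r = 0.78), while the 2 highest Mos values lie apart at the upper right and r falls from 0.66 to 0.14 without them.

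The genes whose pattern over the embryos was most like that of each member were found by r on group-centred values, among about 10890 brighter rows of other genes. For Wee2 they were Bub1b, which encodes the spindle checkpoint kinase BubR1 (r = 0.86), Kcnh1 (0.79) and Mtfr1l (0.75). For Mos they were the ubiquitin ligase gene Ubr2 (0.84), Polr2d (0.80) and Napsa (0.79), and for Ccnd2 Mab21l2 (0.90), Dock6 (0.85) and Krtap10-10 (0.85). Cdk1 was most like Scg3 (0.85), Pdxdc1 (0.78) and Ube2b (0.77), and Cdk2 most like Sacm1l (0.76), Ppfia1 (0.74) and Canx (0.73). Ccna2 was nearest to Rbmx2 (0.79), Hprt (0.79) and Tex11 (0.78), and Ccnb2 to 1500002C15Rik (0.77), Btnl5-ps (0.76) and Hmbox1 (0.74). Ccne1 was nearest to Med21 (0.81), Nop58 (0.78) and Ctu2 (0.76), and Wee1 to Lmo1 (0.83), Fam83d (0.82) and Arhgap42 (0.78). These are the highest of many values over 17 embryos, and no test was made of them.

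The rest of the pathway was described by 7 lists with 202 rows of 177 genes, the members left out. No row of them passed in the comparison of PJ34 and control embryos (limma, adjusted p threshold 0.1), and the median difference was -0.01. At an unadjusted p under 0.05 stood 19 rows, or 9.41%, beside 5.89% of all rows. The genes named next had the smallest p of their list in each direction and did not pass.

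Among 46 rows of other cyclins and their kinases (median difference -0.06), 0 were higher and 3 lower at that level, and 31 had a negative difference, beside 56.4% of all rows. Ccnc, the cyclin of the Mediator kinase module, had a level of 7.86 in PJ34 and 8.89 in control embryos (difference -1.02), and Ccnk, which acts with transcriptional Cdks, had 0.28. Among 30 rows of Cdk inhibitors and G1 control (median 0.03), 2 were higher and 0 lower. E2f5, an E2F family transcription factor, stood at 9.60 against 8.88 (difference 0.72, above the control mean in 9 of 10 PJ34 embryos), and Cdkn2a, the locus of p16 and Arf, at -0.12.

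Of 33 rows of mitotic entry regulators (median 0.00), 1 was higher and 4 were lower. The lower rows include Aurkc at -0.42 and -0.26, named here only because its further rows stood at 0.04 and -0.06. Cdc25a, the phosphatase that removes the marks set by Wee1 kinases, had a level of 8.05 in PJ34 and 8.56 in control embryos (difference -0.51, 95% interval -0.82 to -0.20) and was below the control mean in 9 of 10 PJ34 embryos. Nek2, a kinase of centrosome separation, differed by 0.34. Among the 17 rows of oocyte arrest and the Mos pathway (median -0.06), 0 were higher and 1 lower: the ribosomal S6 kinase gene Rps6ka6 at -0.15. Map2k2, a MAP kinase kinase, differed by 0.21.

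Of 31 rows of the anaphase promoting complex and mitotic exit (median 0.00), 0 were higher and 1 lower. This was Cdc26, a small subunit of the complex, at 5.52 against 6.85 (difference -1.33, 95% interval -2.32 to -0.33), and the ubiquitin conjugating enzyme gene Ube2s differed by 0.39. Of 19 spindle checkpoint rows (median -0.06), 1 was higher and 1 lower. Nuf2, a kinetochore subunit, stood at 9.60 against 8.82 (difference 0.78), and the kinetochore motor gene Cenpe at -0.19. Of 26 S phase rows (median 0.09), 3 were higher and 2 lower. Slbp, which binds the stem-loop of histone mRNA, differed by 0.27, and Rrm1, the large subunit of ribonucleotide reductase, stood at 5.91 against 6.72 (difference -0.81).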

How the data were processed

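RNA of single 2-cell embryos had been amplified with the WT-Ovation One-Direct kit and measured on Mouse Gene 1.0 ST arrays (Affymetrix), 1 embryo each. The authors deposited log2 intensities made by RMA in Partek (background correction, quantile normalization across arrays, summarization by probe set), with the software version and genome build not given in the sources used here. These values were used as deposited. Quantile normalization gives the probe values of all arrays 1 distribution, so a change of total RNA cannot be seen. The row values summarized after it need not share 1 distribution, and array medians lay between 6.12 and 6.23.

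Of 28815 rows, 21780 carried 1 symbol (19935 genes, 21689 rows matched to the RefSeq table by gene ID), 1605 several and 5430 none. Groups and fathers came from the labels. Tests used limma 3.58.1 in R 4.3.3 (lmFit, eBayes, two-sided, Benjamini-Hochberg over the named rows, threshold 0.1 after the study's methods) for 10 PJ34 against 7 control embryos, each family and each embryo against the controls, and a moderated F between PJ34 fathers. Correlations used Python 3.11.15 with 100000 permutations. P-values measure the spread between embryos, which share fathers. The group and family fits and the permutation test of gene pairs were tested on simulated data, in which embryos were independent. The single-embryo fits, the exact permutation test and the permutation tests against list, marker and array measures were not. Lists and members were chosen with earlier results of these data known. In each of 7 pathway lists the rule named the row of smallest p in each direction, and for likeness the 3 genes of highest r. Of the listed pathway symbols 8 had no row. Alternatives were the father as a block, means of fathers, the study's plain per-row test, other scalings, row filters and leaving out embryos or fathers. Promoter sequences were those of RefSeq.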

Additional observations from a re-analysis of the deposited data

Results flagged for a closer look

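Mos in the embryos of MTM11 was the one value far from its group among 36 family and group sets of 4 to 10 embryos examined for the 9 genes. MTM11-2 stood at 7.24 and the others at 5.81, 5.95 and 5.81, and the gap to the nearest of them was 0.896 of the whole range of the family, above Dixon's limit for 4 values. By chance about 1 in 20 such sets would stand out, or 1.8 of 36.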

How the results depend on the processing

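No paired analysis was possible because embryo numbers count within a father and pair nothing across groups. Over 31 alternatives for each gene none of the 9 passed, with adjusted p (limma) from 0.643 to 1.00, and 6 of the 9 differences kept their sign in all of them. Ccna2 turned to -0.00385 without father A, -0.0132 without B and -0.0143 without MTM14 (-0.0231 to 0.0321 with 1 embryo left out), Ccnd2 to -0.00919 without D (-0.000803 to 0.0853 with 1 embryo left out) and Cdk1 to -0.0818 without MTM13. The cause was not tested. Rows called over the whole array were 0, against 2 with the father as a random block, 2 among rows above the median level, 2 without father A, 1 without MTM14 and 0 to 2 with 1 embryo left out. None was a member. Of single-embryo values 2 passed, against 1 with centred arrays and 0 to 2 with 1 control embryo left out. It was 0 without B-3 or D-2. By family and between fathers no member passed in 72 alternatives, although rows called for MTM14 rose from 12 to 80 without MTM14-1 and to 149 without MTM14-2, and those between fathers from 3 to 56 and 110, which leave 1 embryo assumed to vary like the others. The relations of Wee2 with oocyte-derived markers and of Mos with other cyclins no longer passed by Spearman's rho, and that of Mos also not on group-centred values. Dim genes such as Mos and Ccnd2 lie near the level of markers of other cell types, which limits what their values can show.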
